A study of Mus musculus with 14 samples.

Results

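Neurexins and neuroligins are adhesion proteins that meet across the synaptic cleft, and 5 of their genes were followed here: the neurexin genes Nrxn2 and Nrxn3 and the neuroligin genes Nlgn1, Nlgn2 and Nlgn3. They were picked by gene symbol from the 55291 rows of the count tables, and all 5 were among the 22150 genes tested. Other members of both families were not analysed here. The study sequenced polyadenylated RNA of single dentate gyri, cut with a scalpel from mouse organotypic cultures in which the entorhinal cortex stays joined to the hippocampus. The cultures were prepared at postnatal day 4 to 5 and kept for at least 18 days. The wildtype group (6 libraries) came from C57BL/6J animals (APP+/+), and the APPko group (8 libraries) from 1 gene-targeted line that lacks the amyloid precursor protein (APP-/-). No drug or other agent separated the groups. The labels call the libraries biological replicates but do not say which cultures shared an animal, so p-values measure the spread between these cultures.

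Neurexins sit mainly in the presynaptic membrane. Each gene has several promoters that give long alpha and shorter beta forms, and alternative splicing decides which postsynaptic partners a form can bind. Neuroligins are postsynaptic partners of neurexins. Neuroligin 1 is found mostly at excitatory synapses, neuroligin 2 at inhibitory synapses and neuroligin 3 at both, and a dentate granule cell receives both kinds of input: glutamatergic fibres of the perforant path and GABAergic fibres of local interneurons. The count tables sum all reads of a gene, so alpha and beta forms and splice variants were not separated.

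The 2 families end in different short tails that dock to PDZ domain scaffolds inside the cell, CASK for neurexins and PSD-95 family proteins for neuroligins. The last 60 coding bases of each gene are shown because they set the families apart and because the scaffolds that read them appear among the partner genes tested below. They were read from GENCODE transcripts of GRCm38 (release M21). The capitals mark the last 4 codons before the stop codon, which encode the PDZ ligand.
Nrxn2: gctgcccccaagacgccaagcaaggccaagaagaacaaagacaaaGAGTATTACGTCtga
Nrxn3: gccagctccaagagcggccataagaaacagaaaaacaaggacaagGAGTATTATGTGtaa
Nlgn1: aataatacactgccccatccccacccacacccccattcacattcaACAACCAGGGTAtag
Nlgn2: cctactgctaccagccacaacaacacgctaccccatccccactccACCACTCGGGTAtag
Nlgn3: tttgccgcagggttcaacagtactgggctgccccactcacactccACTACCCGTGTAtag
These ends lie in the last coding exon at chr19:6532089-6532148 (plus strand, exon 22 of its longest coding transcript), chr12:90332351-90332410 (plus strand, exon 20), chr3:25433638-25433697 (minus strand, exon 8), chr11:69825203-69825262 (minus strand, exon 8) and chrX:101320203-101320262 (plus strand, exon 8). Compared position by position without gaps, the neurexin ends shared 38 of 60 bases. Pairs of neuroligins shared 31 to 36 bases, and a neurexin and a neuroligin shared 15 to 21.

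The genes differ in size and base composition. Nrxn3 spans 1612 kb of chromosome 12 and Nlgn1 906 kb of chromosome 3, whereas Nrxn2 spans 125 kb of chromosome 19, Nlgn3 26.8 kb of the X chromosome and Nlgn2 14.7 kb of chromosome 11. Nlgn1 had the lowest GC content, with 38.9% in its longest transcript and 45.9% in its longest coding sequence. Nrxn2 and Nlgn2 were the richest, with 62.4% and 60.7% in the transcript and 62.6% and 62.7% in the coding sequence. Nrxn3 (47.5%) and Nlgn3 (49.3%) lay between them.

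App itself was the check of the labels. It lay between 182 and 231 CPM (the usual count rate per library, with library sizes scaled by TMM, a method that corrects for composition) in APPko and between 679 and 964 CPM in wildtype, so all 8 APPko libraries were below all 6 wildtype libraries. Total counts ran from 16686909 to 31031126 per library. Wildtype libraries 2 and 3 stood apart from the others, with TMM factors of 0.852 and 0.847 against 0.976 to 1.09 in the other 12. The column headers of the tables end in f or m, 3 and 3 in wildtype and 7 and 1 in APPko. Neuron, granule cell, interneuron and glial markers were all detected: no marker of the 8 cell classes listed was at 0 in every library.

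None of the 5 genes passed the test between genotypes (edgeR's quasi-likelihood test, Benjamini-Hochberg adjusted over all 22150 genes, threshold 0.05), where 2.35% of all tested genes did. Nlgn1 and Nlgn2 had unadjusted p under 0.05 in edgeR, as 20.4% of all tested genes had. DESeq2 called 1 of the 5, Nlgn1, and 10.0% of the 16823 genes to which it gave an adjusted p. Limma voom with quality weights called 0 of the 5, beside 181 higher and 169 lower genes among all 22150. Nlgn1 showed the largest difference, with a lower mean in APPko, Nlgn2 had a higher mean, Nrxn3 and Nlgn3 had slightly lower means, and Nrxn2 had nearly equal means. The ranges of the genotypes overlapped for each of the 5, as they did for all but 1.12% of tested genes. The median log2 change was -0.17 over the 5 genes and -0.01 over all tested genes.

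**Figure D1:**
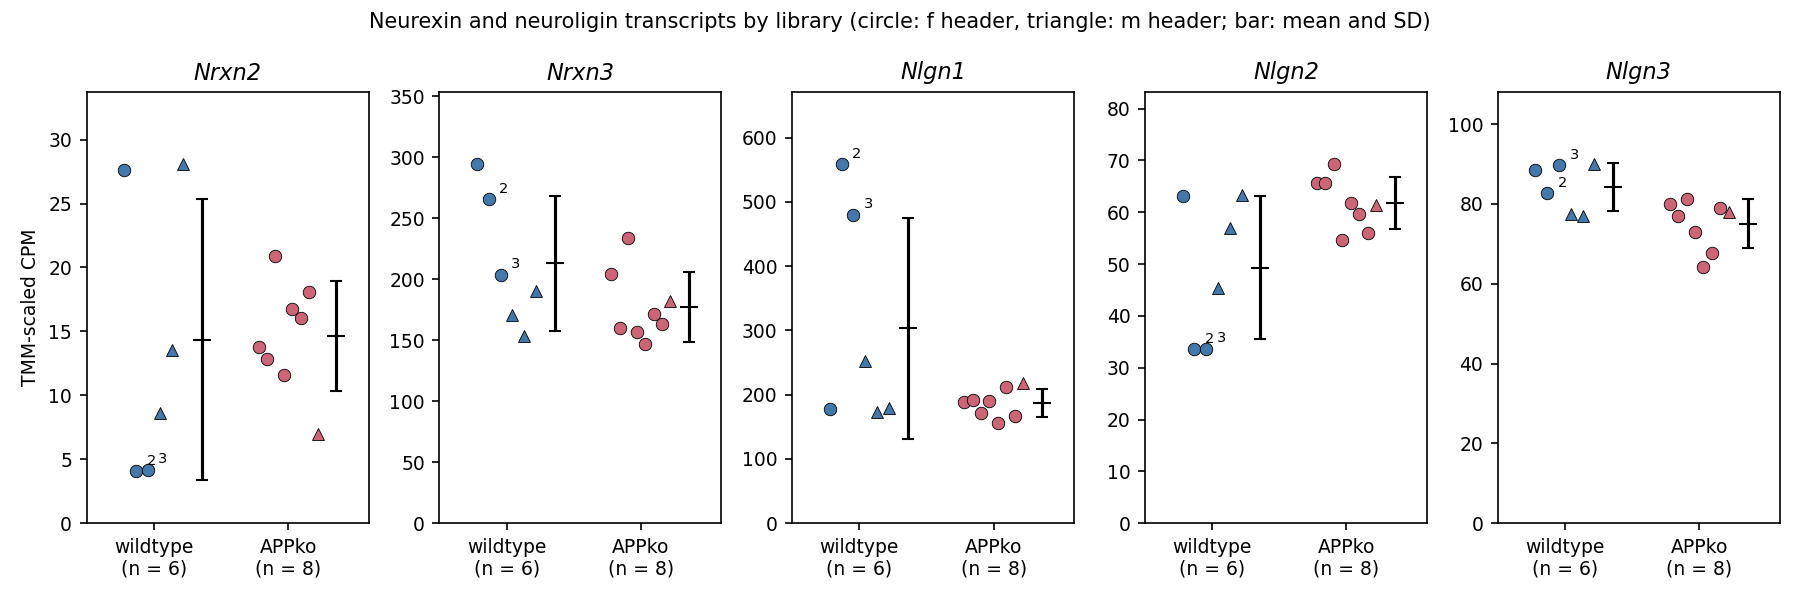
TMM-scaled CPM of each gene (vertical axis, linear, from 0) in 6 wildtype and 8 APPko libraries, 1 point per library, with the mean and SD beside each group. Circles carry f and triangles m in the table header, and wildtype libraries 2 and 3 are numbered: they hold the highest Nlgn1 values (559 and 480 CPM) and the lowest Nlgn2 and Nrxn2 values.

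Nrxn2, on the presynaptic side, had the lowest level. The 6 wildtype libraries ran from 4.09 over a median of 11.1 to 28.1 CPM, on 87 to 513 raw counts, and the 8 APPko libraries from 7.00 over 14.9 to 20.9 CPM, on 189 to 511 raw counts. The wildtype values formed a wide band around the APPko values: 2 wildtype libraries (1 and 6) lay above all of APPko and 2 (2 and 3) below all of APPko. The means were 14.4 ± 11.0 CPM (SD, n = 6) in wildtype and 14.6 ± 4.29 CPM (SD, n = 8) in APPko. The log2 change was 0.03 (SE 0.39, edgeR adjusted p = 0.978), with a 95% interval from -0.78 to 0.84 that leaves a wide range of changes in either direction compatible with these libraries. Its sign turned without wildtype libraries 2 and 3 (log2 change -0.41). Of the gene's exon bases 6.44% overlap exons of other genes on the opposite strand, mainly Slc22a12 (682 bases), and the strand setting of the counting is not given in the sources used here. Opposite-strand overlap also covers 9.16% of the exon bases of Nlgn1 and 3.46% of those of Nrxn3.

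Nrxn3 was far more abundant. Wildtype libraries ran from 153 over a median of 197 to 294 CPM and APPko libraries from 147 over 167 to 234 CPM. Wildtype libraries 1 and 2 were above all of APPko, and the other 4 fell among the APPko values. The means were 213 ± 55.4 CPM (SD, n = 6) in wildtype and 177 ± 28.7 CPM (SD, n = 8) in APPko, a log2 change of -0.26 (SE 0.15, 95% interval -0.57 to 0.04, edgeR adjusted p = 0.318). The change passed in 1 setting, the f libraries alone (-0.53, edgeR adjusted p = 0.029), which compares 3 wildtype libraries, 2 and 3 among them, with 7 APPko libraries. In the m libraries alone it was 0.15, with a single APPko library that is assumed to vary like the wildtype ones. The difference between those changes did not pass its own test (interaction 0.61, edgeR adjusted p = 0.23).

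Nlgn1, the neuroligin of excitatory synapses, carried the largest difference. Wildtype libraries ran from 173 over a median of 216 to 559 CPM, and APPko libraries from 155 over 189 to 218 CPM. Wildtype libraries 2 (559 CPM), 3 (480 CPM) and 4 (253 CPM) lay above all APPko libraries, while wildtype libraries 1, 5 and 6 (177, 173 and 179 CPM) lay among them. The means were 303 ± 172 CPM (SD, n = 6) in wildtype and 187 ± 21.9 CPM (SD, n = 8) in APPko, 1.63-fold lower (log2 change -0.70, SE 0.24, 95% interval -1.20 to -0.21, unadjusted p = 0.0081 in edgeR, edgeR adjusted p = 0.107).

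The size of that difference rested on wildtype libraries 2 and 3. Without them the log2 change of Nlgn1 was -0.06 (SE 0.12, edgeR adjusted p = 0.89), and without library 4 as well it was 0.09. Libraries 2, 3 and 4 are those above all of APPko for this gene, so leaving them out shrinks the difference by construction. The omission of library 4 was chosen after the data were seen. Voom weights, which gave libraries 2 and 3 the weights 0.341 and 0.386, put it at -0.26 (limma adjusted p = 0.49). It passed the threshold with DESeq2 (-0.71, adjusted p = 0.035), with the header suffix as a covariate (-0.80, edgeR adjusted p = 0.046) and in the f libraries alone (-1.15, edgeR adjusted p = 0.0049). All 3 of these fits contain both libraries. In the m libraries alone the value was 0.18, and the interaction of genotype and suffix did not pass (1.27, edgeR adjusted p = 0.12).

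Nlgn2, the neuroligin of inhibitory synapses, had the opposite sign. Wildtype libraries ran from 33.6 over a median of 51.1 to 63.3 CPM and APPko libraries from 54.7 over 61.6 to 69.3 CPM. All 8 APPko libraries exceeded the wildtype median, and 3 of them exceeded the highest wildtype library. Wildtype libraries 2, 3 and 4 (33.6, 33.7 and 45.3 CPM) were below all of APPko, and the other 3 fell within its range. The means were 49.3 ± 13.8 CPM (SD, n = 6) in wildtype and 61.8 ± 4.99 CPM (SD, n = 8) in APPko, 1.25-fold higher (log2 change 0.33, SE 0.14, 95% interval 0.03 to 0.62, unadjusted p = 0.033 in edgeR, edgeR adjusted p = 0.198). Without wildtype libraries 2 and 3 the log2 change was 0.12 (edgeR adjusted p = 0.70), and without library 4 as well it was 0.021. Libraries 2, 3 and 4 are the lowest of wildtype for Nlgn2, so leaving them out shrinks this difference by construction too. Again, library 4 was left out after the data were seen.

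Nlgn3, encoded on the X chromosome, had the smallest spread of the 5 in wildtype. Wildtype libraries ran from 76.9 over a median of 85.6 to 90.0 CPM and APPko libraries from 64.1 over 77.4 to 81.3 CPM. All 8 APPko libraries were below the wildtype median, 4 were below the lowest wildtype library, and 4 wildtype libraries were above the highest APPko library. The means were 84.2 ± 6.11 CPM (SD, n = 6) in wildtype and 75.0 ± 6.20 CPM (SD, n = 8) in APPko, 1.12-fold lower (log2 change -0.17, SE 0.08, 95% interval -0.34 to 0.01, edgeR adjusted p = 0.276). Unlike Nlgn1 and Nlgn2, it kept its size without wildtype libraries 2 and 3 (-0.14, edgeR adjusted p = 0.57). The suffix moved it little: m libraries stood at -0.04 against f libraries on the log2 scale (SE 0.10) in a fit with genotype. Of its exon bases 41.2% overlap the transcript Gm21986 on the same strand, and how reads shared by both were counted is not given in the sources used here.

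**Figure D2:**
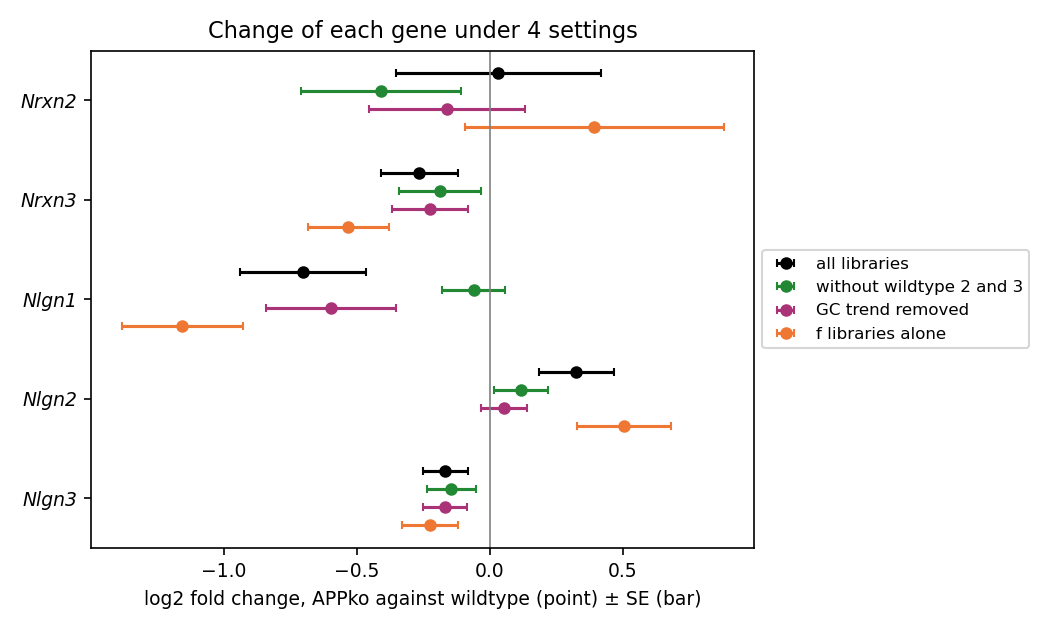
Log2 fold change of each gene, APPko against wildtype (horizontal axis), as a point with its SE, in all 14 libraries and in 3 other settings. Nlgn1 moves from -0.70 to -0.06 without wildtype libraries 2 and 3, Nlgn2 from 0.33 to 0.05 with the GC trend removed, and Nlgn3 stays between -0.22 and -0.14.

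The spread within a genotype was itself uneven between the genes. In wildtype the coefficient of variation (SD over mean) was 76.8% for Nrxn2 and 56.6% for Nlgn1, higher than in 99.5% and 97.9% of genes at a similar level (within 2-fold). It was 7.25% for Nlgn3, lower than in all but 3.69% of such genes. In APPko it was 29.3% for Nrxn2, 11.7% for Nlgn1, 8.27% for Nlgn3 and 8.08% for Nlgn2. The wildtype group was the more variable one for 78.7% of all tested genes, with Nlgn3 among the exceptions.

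Nlgn1, Nlgn2 and Nrxn2 varied along one line between libraries. After removing genotype means, log2 CPM of Nlgn1 and Nlgn2 had Pearson's r of -0.90 (Spearman's rho -0.74), Nlgn1 and Nrxn2 -0.89 (rho -0.85), and Nrxn2 and Nlgn2 0.87 (rho 0.78), each over 14 libraries. These are descriptions without a test, and values of 1 library share its depth and composition. Wildtype libraries 2 and 3 form the far end of the line. Without them r of Nlgn1 and Nlgn2 was -0.47 over 12 libraries, and in APPko alone it was -0.15 over 8. For Nlgn1 and Nrxn2 r was -0.75 without them and -0.68 in APPko alone, and for Nrxn2 and Nlgn2 it was 0.58 and 0.24. Over all 14 libraries Nlgn3 and Nrxn3 stood off this line, with r of 0.09 and 0.26 to Nlgn1 and 0.57 to each other. Without wildtype libraries 2 and 3, however, r to Nlgn2 was 0.53 for Nlgn3 and 0.58 for Nrxn3.

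**Figure D3:**
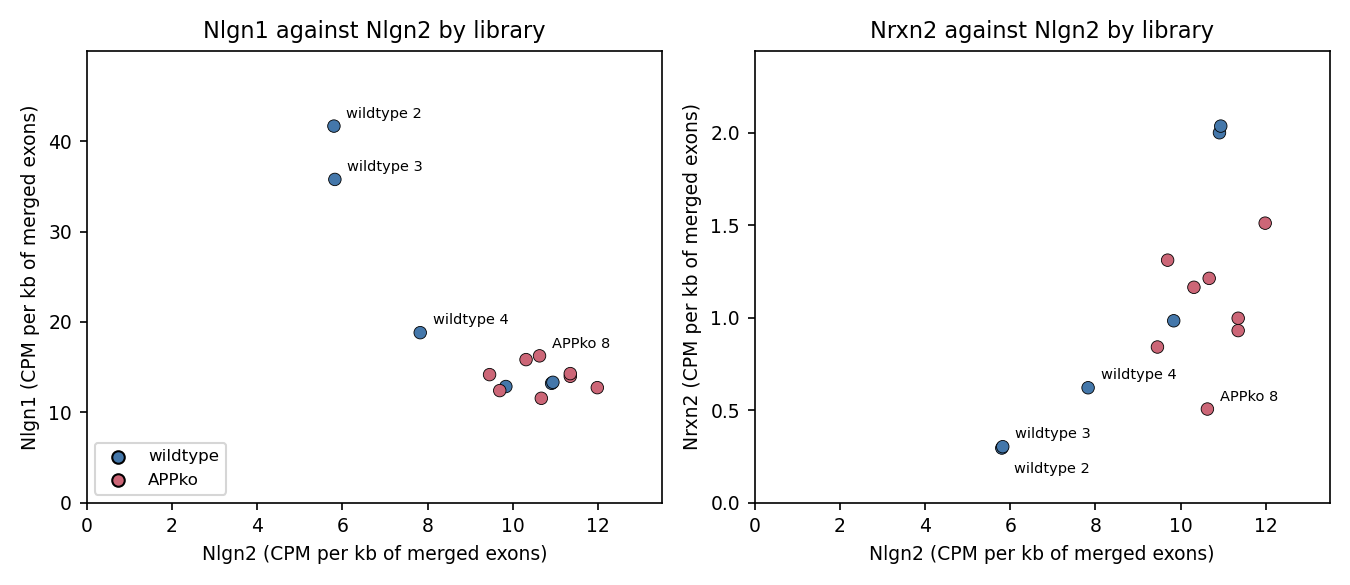
Nlgn1 (left) and Nrxn2 (right) against Nlgn2 in each library, in CPM per kb of merged exons, with 6 wildtype and 8 APPko points. Wildtype libraries 2 and 3 lie at the low end of Nlgn2, at the top for Nlgn1 and at the bottom for Nrxn2, and wildtype library 4 lies between them and the rest for Nlgn1.

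The libraries also differed in how levels related to GC content. The rank correlation between a gene's GC content and its deviation from its own mean across libraries was computed over 22132 genes. It was negative in wildtype libraries 1 to 5, lowest in library 2 (-0.37) and next in library 5 (-0.21), whose Nlgn1 level was the lowest of its group, and positive in 7 of 8 APPko libraries, up to 0.33. Genes under 40% GC had a median log2 change of -0.16, and genes over 60% GC one of 0.27. Nlgn1 falls in the first class, and Nlgn2 and Nrxn2 in the second. With the GC trend removed from each library by an offset, the log2 change of Nlgn2 was 0.05 (edgeR adjusted p = 0.81), that of Nrxn2 -0.16 and that of Nlgn1 -0.60 (edgeR adjusted p = 0.21). Nlgn3 stayed at -0.17 and Nrxn3 at -0.22.

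The summed markers of cell types also differed in wildtype libraries 2 and 3. Neuron markers summed to 5555 and 6068 CPM there, against 3360 to 4703 CPM in the other wildtype libraries and 3293 to 4603 CPM in APPko. The sums are unweighted, and Snap25 weighs most in this one: in wildtype it averaged 2342 CPM (range 1470 to 3716) of a mean sum of 4567 CPM. Astrocyte markers summed to 6703 and 6884 CPM, against at most 5366 and 6012 CPM in the other wildtype and the APPko libraries. Microglia markers were at 181 and 220 CPM, below the lowest other wildtype (251 CPM) and APPko (359 CPM) libraries. Granule cell markers summed to 833 ± 180 CPM in wildtype (1118 in library 3, 766 in library 2) and to 599 ± 105 CPM in APPko. The lower sum lay mainly in Calb1 (means of 454 and 277 CPM) and Rfx3 (180 and 126 CPM). Prox1 was nearly level (158 and 151 CPM), as were Dsp (11.7 and 11.1 CPM) and Plk5 (1.87 and 1.65 CPM), and C1ql2 was higher in APPko (28.1 and 32.0 CPM). Over the list 5 genes had negative log2 changes and 1 a positive one, with a median of -0.12. Over the 8 lists 3 markers passed the genotype test, as 2.35% of all tested genes did. Of 6 granule cell markers 1 fell, Rfx3 (edgeR adjusted p = 0.0309). Of 6 microglia markers 2 rose, C1qb and Tyrobp (edgeR adjusted p = 0.0471 and 0.028). The other microglia markers did not pass, with log2 changes of 0.29 for Csf1r, 0.07 for Tmem119, -0.26 for P2ry12 and -0.03 for Cx3cr1. The part of cell makeup in the neurexin and neuroligin values was not tested. In bulk tissue, fewer cells of a type and less RNA per cell cannot be told apart.

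The promoter windows of Nlgn1 and Nlgn2 are shown because this pair had opposite signs of change and opposed levels between libraries. They are RefSeq windows of GRCm38.p6 from 250 bases before to 50 bases after a start site, given on the gene's own strand (minus for both). The capitals mark the GC box GGGCGG, searched on both strands.
Nlgn1 chr3:26331860-26332159: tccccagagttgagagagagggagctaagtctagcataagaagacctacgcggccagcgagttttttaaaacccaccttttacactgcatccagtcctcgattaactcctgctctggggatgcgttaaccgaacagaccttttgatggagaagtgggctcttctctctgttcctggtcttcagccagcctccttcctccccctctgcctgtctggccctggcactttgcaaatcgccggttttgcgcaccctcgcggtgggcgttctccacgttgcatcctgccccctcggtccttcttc
Nlgn2 chr11:69837735-69838034: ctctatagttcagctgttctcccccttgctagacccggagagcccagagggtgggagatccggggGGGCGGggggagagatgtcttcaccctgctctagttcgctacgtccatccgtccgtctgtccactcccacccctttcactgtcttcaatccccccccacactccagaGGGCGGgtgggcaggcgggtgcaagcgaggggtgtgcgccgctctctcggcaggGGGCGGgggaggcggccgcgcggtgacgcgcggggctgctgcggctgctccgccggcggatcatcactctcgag
The Nlgn2 window held 68.7% GC and 3 GC boxes, and more GC than 88.5% of 32851 windows of that length. The Nlgn1 window, the more upstream of 2 for this gene, held 55.7% GC and no match. The GC box occurred in 35.7% of all windows. Neither of the windows shown held a TATA box (TATAAA, 13.6% of windows), a CCAAT box (CCAAT, 37.4%) or a cAMP response element (TGACGTCA, 1.79%). The other Nlgn1 window, not shown, held 44.7% GC, more than 21.1% of windows. It had 1 CCAAT box and no GC box, TATA box or cAMP response element. A match is a stretch of letters, not a measured binding site.

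Levels of different genes were compared per kb of merged exons. In wildtype Nlgn1 averaged 22.6 ± 12.8 CPM per kb (SD, n = 6), Nrxn3 16.8 ± 4.37, Nlgn3 9.08 ± 0.66, Nlgn2 8.52 ± 2.39 and Nrxn2 1.04 ± 0.80. In APPko Nrxn3 and Nlgn1 were level at 13.98 ± 2.27 and 13.9 ± 1.63 CPM per kb (SD, n = 8), followed by Nlgn2 at 10.7 ± 0.86, Nlgn3 at 8.09 ± 0.67 and Nrxn2 at 1.06 ± 0.31. Nlgn1 exceeded Nrxn3 in 8 of 14 libraries per kb of merged exons but in 2 of 14 per kb of the longest transcript, where the wildtype means were 25.7 for Nlgn1 and 26.9 for Nrxn3, so their order turned with the length used. Nrxn3 exceeded Nlgn2, and Nlgn3 exceeded Nrxn2, in 14 of 14. Nlgn2 exceeded Nlgn3 in 8 of 8 APPko and 3 of 6 wildtype libraries. The Nlgn3 level was divided by all its exon bases, of which 41.2% overlap Gm21986, whereas Nlgn2 shares none. Its place beside Nlgn2 and its share of the neuroligin sum thus depend on how shared reads were counted, which is not given.

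The balance of the neuroligins followed from these levels and is described without a test. The ratio of Nlgn1 to Nlgn2 per kb was 7.18, 6.14 and 2.40 in wildtype libraries 2, 3 and 4 and 1.21 to 1.31 in the other 3 wildtype libraries. In the 8 APPko libraries it ran from 1.06 over a median of 1.27 to 1.54, a range that holds the wildtype libraries 1, 5 and 6. Nlgn2 made up 32.7 ± 2.52% (SD, n = 8) of the summed neuroligin level in APPko and 23.4 ± 10.4% (SD, n = 6) in wildtype, and Nlgn3 24.8 ± 1.79% and 23.7 ± 5.30%. The sum over the 3 neuroligins was 40.2 ± 10.7 CPM per kb (SD, n = 6) in wildtype and 32.7 ± 2.05 (SD, n = 8) in APPko, with wildtype libraries 2 and 3 at 56.4 and 51.3 and the other 12 libraries between 29.1 and 35.3.

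The genes most alike to each member in their variation between libraries were sought among 13687 protein-coding genes with a mean of at least 1 CPM, by Pearson's r over 14 libraries with genotype means removed. Nrxn2 was closest to Elfn2 (r = 0.98, rho 0.96), a postsynaptic leucine-rich repeat protein, Pabpc4 (0.97, rho 0.97) and Ppp6r1 (0.97, rho 0.96). Nlgn1 was closest to Paip2 (0.99, rho 0.95), an inhibitor of translation, with Vps29 of the retromer complex at 0.98 (rho 0.97). Nlgn2 was closest to Pou6f1 (0.95, rho 0.93), Dnajb2 (0.95, rho 0.89) and Rxrb (0.95, rho 0.88). Many genes were similarly close: 10.1% of those compared reached r above 0.8 with Nlgn1, 4.89% with Nrxn2 and 4.09% with Nlgn2. For Nrxn3 and Nlgn3 only 0.402% and 0.124% did, with Coq2 (0.95, rho 0.98) and Nfkb1 (0.89, rho 0.90) leading for Nrxn3, and Themis2 (0.87, rho 0.80), Usp4 (0.87, rho 0.81) and Mast3 (0.86, rho 0.74) for Nlgn3.

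The genes that neurexins and neuroligins work with were taken from 6 lists of 70 genes in all, each of them tested. Of the 70, 12 fell and 1 rose in APPko, against 1.41% and 0.944% of all tested genes, and the median log2 change over the 70 was -0.10. Some of these genes were already known from earlier results on these libraries, so the count is no independent evidence of a direction. The 12 lower genes had 37.9 to 53.1% GC. Of the 13, Ppfia2 and Nxph4 passed without wildtype libraries 2 and 3, though all 12 lower genes kept their sign there. With the GC trend removed 6 of the 13 passed. The count of lower partner genes also hung on single libraries. It was 2 without wildtype library 2 or 3, 1 without APPko library 5, 2 without APPko library 1, 4, 6 or 7, 3 without APPko library 2 and 6 without APPko library 3 or 8, against 8 to 14 without any one of the other 4 wildtype libraries.

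Among 21 neurexin ligands other than neuroligins, 4 fell and 1 rose (median -0.20). The leucine-rich repeat protein genes Lrrtm3 (28.8 ± 3.22 to 17.2 ± 3.18 CPM) and Lrrtm4 (160 ± 66.8 to 87.7 ± 18.0 CPM) fell 1.68- and 1.82-fold (edgeR adjusted p = 0.016 and 0.033). The Lrrtm3 ranges did not overlap (24.7 to 33.4 and 11.0 to 20.2 CPM), and with 1 library left out at a time (14 fits) Lrrtm3 passed each time and Lrrtm4 in 4. C1ql3, a secreted complement-like organizer, fell 1.72-fold (30.7 ± 9.71 to 17.9 ± 4.84 CPM, edgeR adjusted p = 0.0471), and Tafa2, a secreted neurexin-binding protein, 1.48-fold (108 ± 17.5 to 72.6 ± 10.2 CPM, ranges without overlap, edgeR adjusted p = 0.0252). These calls held in 2 and 6 of the 14 fits. Nxph4, the secreted neurexin ligand neurexophilin 4, rose from a low level of 0.88 ± 0.26 to 2.37 ± 0.65 CPM (log2 change 1.42, edgeR adjusted p = 0.0172). All 8 APPko libraries (1.78 to 3.53 CPM) exceeded the highest wildtype library (1.06 CPM), and the call held whichever single library was left out (14 fits).

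Of 6 membrane regulators of neuroligins 1 fell. It was Mdga2, whose product binds neuroligins in the same membrane and blocks neurexin binding, from 106 ± 14.9 to 81.4 ± 6.11 CPM (1.31-fold, edgeR adjusted p = 0.0435), a call kept in 3 of the 14 fits with 1 library left out. Of 11 presynaptic partners of the neurexin tail 2 fell. Ppfia2, which encodes the active zone scaffold liprin-alpha2, went from 452 ± 126 to 264 ± 25.7 CPM (1.71-fold, edgeR adjusted p = 0.0171), with ranges of 338 to 675 and 223 to 302 CPM, and of the 14 fits with 1 library left out only that without APPko library 5 lost the call. Lin7a, a PDZ protein that joins CASK at the neurexin tail, went from 163 ± 42.0 to 103 ± 12.8 CPM (1.59-fold, edgeR adjusted p = 0.0261), a call kept in 7 of the 14. Cask itself stood at 94.8 ± 11.0 and 80.0 ± 4.59 CPM and did not pass (edgeR adjusted p = 0.12).

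Of 15 postsynaptic partners of the neuroligin tail, Magi1, a PDZ scaffold, fell from 72.1 ± 23.4 to 43.3 ± 10.7 CPM (1.66-fold, edgeR adjusted p = 0.0447), a call kept in 3 of the 14 fits with 1 library left out, and the other 14 partners did not pass. Among those, Dlg4, which encodes PSD-95, stood at 29.3 ± 6.68 and 26.8 ± 3.39 CPM (edgeR adjusted p = 0.63), and Gphn, which encodes the inhibitory scaffold gephyrin bound by neuroligin 2, at 98.1 ± 14.2 and 88.1 ± 3.83 CPM (edgeR adjusted p = 0.36). Both were named after their values were seen, as the scaffolds best known for the 2 kinds of synapse. Of 7 proteases and kinases that act on neurexins or neuroligins, Adam10, a sheddase of neuroligin 1, fell from 153 ± 36.6 to 110 ± 7.72 CPM (1.40-fold, edgeR adjusted p = 0.0443), a call kept in 3 of the 14 fits with 1 library left out. The other 6 had positive log2 changes that did not pass.

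Of 10 splicing regulators of neurexin transcripts 3 fell. Khdrbs1 (SAM68) went from 136 ± 17.3 to 102 ± 8.92 CPM and Khdrbs2 (SLM1) from 31.4 ± 5.65 to 19.4 ± 4.35 CPM, 1.33- and 1.62-fold lower (edgeR adjusted p = 0.0357 and 0.031). Both belong to the protein family that sets a major splice choice of neurexin transcripts. Nova1, a neuronal splicing factor, went from 39.3 ± 4.21 to 31.1 ± 1.71 CPM (1.27-fold, edgeR adjusted p = 0.0479). These calls held in 4, 6 and 2 of those 14 fits, in that order, and none of the 3 passed without wildtype libraries 2 and 3. The gene-level counts hold no information on the splice forms themselves.

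**Figure D4:**
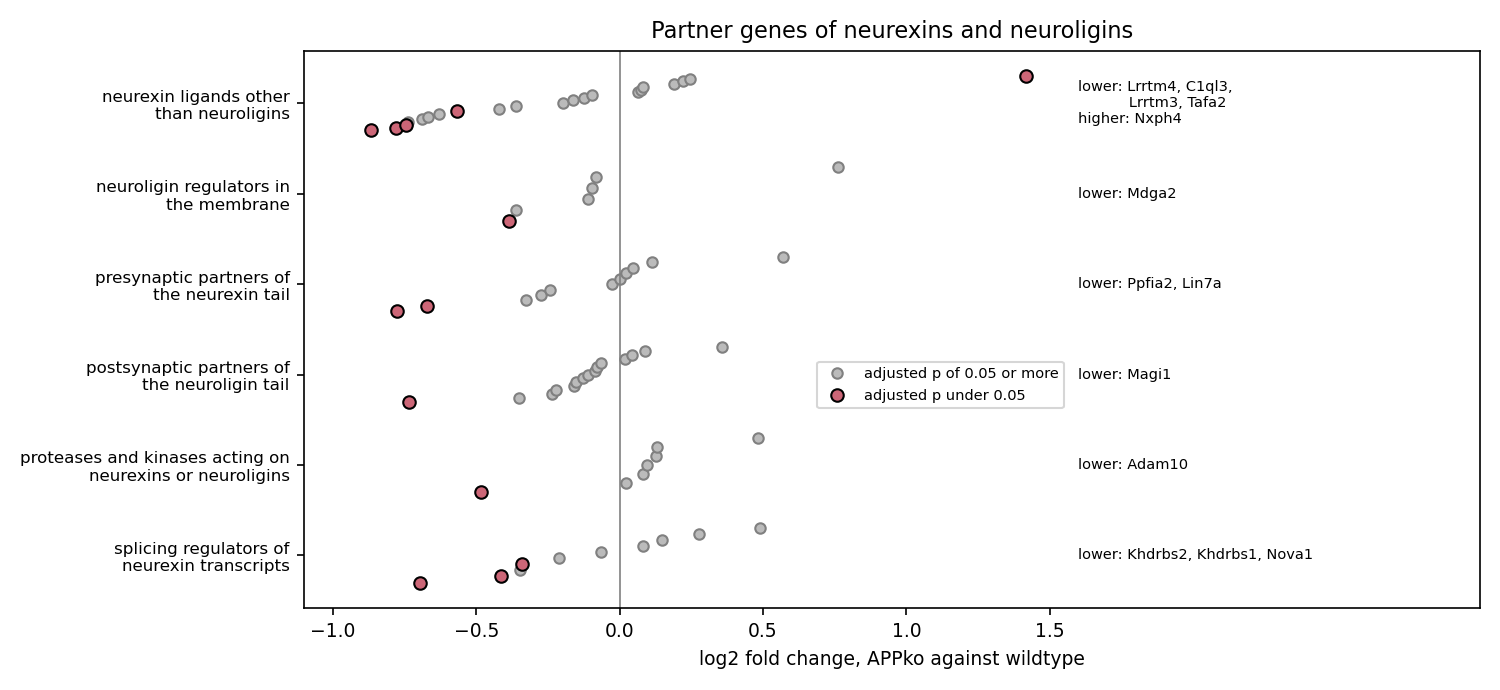
Log2 fold change, APPko against wildtype (horizontal axis), of the 70 partner genes in 6 lists (rows), 1 point per gene, with genes past an adjusted p of 0.05 in red and named at the right. The 12 lower genes lie between -0.34 and -0.87 and the only higher gene, Nxph4, at 1.42.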

How the data were processed

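Polyadenylated RNA of 14 dentate gyri was sequenced as 151 bp pairs after 12 and 10 cycles of amplification without molecular identifiers, per the labels' protocols, so reads are not independent molecules. The authors deposited 1 table of raw counts for each library, with gene symbols as row names. The submitters' processing notes name GRCm38 and the tools featureCounts 2.0.1, STAR 2.7.8a and cutadapt 3.5. For the strand setting and the treatment of multi-mapping reads, nothing is given in the sources used here. Positions and exon lengths came from the other deposited file, the authors' GENCODE annotation, and GC content from GENCODE M21 transcripts of the same build (99.92% of tested genes). Libraries were grouped by title. All 43 pairs within a genotype differed by more than sampling noise (chi-square 7.76 to 94.1 times its degrees of freedom).

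Genes passing edgeR's expression filter were scaled by TMM and tested by edgeR's quasi-likelihood test without covariates (edgeR 4.0.16 in R 4.3.3, with DESeq2 1.42.0, limma 3.58.1 and sva 3.50.0 for alternatives). The code was also run on simulated counts. Those held no GC trends and no library-wide shifts like those of wildtype libraries 2 and 3, so they say nothing on how such shifts affect the calls. Intervals are at 95%, and SDs are over libraries. Named genes are all members, the called genes of each partner list (or, with none, the 2 with the smallest p) and the 3 genes most like each member, with App as the check of the labels. Cask, Dlg4, Gphn and the cell type markers were named outside this rule, after their values were seen. Of the genes that this rule picks, 2 are not reported here. Members and lists were chosen with earlier results of these data known. Alternatives covered scaling, filters, tests, covariates, trends over GC and length, and omitted libraries. The main test treated same-numbered libraries as unpaired. Correlations of their deviations ran from -0.35 to 0.30, which does not decide whether they were pairs.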

Additional observations from a re-analysis of the deposited data

Results flagged for a closer look

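The ratio of Nrxn3 to Nrxn2 per kb of merged exons in APPko library 8 was 28.3, and the gap to the next APPko library took up 0.65 of the range of the group, above Dixon's critical value of 0.526 for 8 samples. The other 7 APPko libraries lay between 9.56 and 16.1, and wildtype libraries between 7.36 and 70.8. Library 8 is the only APPko library whose header ends in m, and it held the lowest Nrxn2 level of its group (7.00 CPM). About 1 in 20 groups exceeds this limit by chance, and 16 groups were examined.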

How the results depend on the processing

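Nlgn2 kept its sign and stayed short of the threshold in each of 14 fits without 1 library (log2 change 0.24 to 0.42) and in 17 other alternatives (0.0046 with the GC trend removed and wildtype libraries 2 and 3 left out, to 0.51 in f libraries alone). Without single libraries the range was -0.82 to -0.44 for Nlgn1, -0.34 to -0.14 for Nrxn3, -0.19 to -0.12 for Nlgn3 and -0.16 to 0.34 for Nrxn2, which turned to -0.16, -0.15 and -0.08 without wildtype library 2, 3 or 4 and to -0.04 and -0.01 without APPko library 3 or 7. Nlgn1 passed with DESeq2 (-0.71), the suffix covariate (-0.80) and f libraries alone (-1.15), and Nrxn3 in f libraries alone (-0.53). Signs also turned without wildtype libraries 2 and 3 (Nrxn2 -0.41), without 2, 3 and 4 (Nrxn2 -0.66, Nlgn1 0.089), with the GC trend removed (Nrxn2 -0.16), with this and libraries 2 and 3 left out (Nrxn2 -0.50, Nlgn1 0.058), with 1 surrogate variable (Nrxn2 -0.14) and in m libraries alone (Nrxn2 -1.19, Nrxn3 0.15, Nlgn1 0.18, Nlgn3 0.0034). Omitted libraries and the m-alone fit leave fewer samples, and otherwise the cause was not tested. The m libraries alone, the omission of wildtype libraries 2, 3 and 4, GC removal joined to an omission, and correlations in 1 genotype were chosen after seeing the data.

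Deviations of same-numbered libraries had correlations of -0.35 to 0.30. Differently numbered pairs were not computed for comparison, so these values do not decide whether the numbers mark pairs. The numbers are those of the titles, which join wildtype libraries 4, 5 and 6 (m) to APPko libraries 4, 5 and 6 (f). With the replicate block, which leaves out APPko libraries 7 and 8, the log2 change was -0.53 for Nlgn1, 0.40 for Nlgn2, -0.22 for Nrxn3, -0.18 for Nlgn3 and 0.44 for Nrxn2, none passing. It called 9 higher and 11 lower genes, and 0 and 0 partner genes.

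Over all genes, 209 higher and 312 lower calls became 711 and 973 with DESeq2, 718 and 728 with the suffix covariate, 1674 and 1998 in f and 8 and 11 in m libraries alone, 19 and 16 without wildtype libraries 2 and 3, 85 and 109 with the GC trend removed, 11 and 9 with both, and 139 and 207 with the length trend removed. Lower calls became 169 with voom, 170 without a filter and 176 with 1 surrogate variable, and higher calls 496 without wildtype libraries 2, 3 and 4. Without single libraries the counts ran from 22 to 735 and from 16 to 701. Partner genes were 2 higher with DESeq2 and the suffix covariate, 2 higher and 6 lower without a filter, 6 higher in f and 0 either way in m libraries alone, 1 lower without wildtype libraries 2 and 3, 5 lower with the GC trend removed, 0 either way with both, and 7 lower with 1 surrogate variable. Without single libraries 1 to 14 were lower and 1 higher.

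Per kb of the longest transcript, levels in wildtype and APPko were 2.15 and 2.19 for Nrxn2, 26.9 and 22.4 for Nrxn3 and 9.86 and 8.79 for Nlgn3, and 15.8 in APPko for Nlgn1. Correlations moved too. For Nlgn1 and Nlgn2 r was -0.47 without wildtype libraries 2 and 3, -0.98 in wildtype and -0.15 in APPko alone. For Nrxn2 and Nlgn2 it was 0.58, 0.98 and 0.24. For Nrxn3 and Nlgn2 it was 0.58 without those libraries and 0.67 in APPko alone. Nrxn2, with 87 counts in its lowest library, had the widest interval.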
